A study of Mus musculus with 8 samples.

Results

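The endothelin genes examined here are 5: the receptors Ednrb and Ednra, the ligands Edn1 and Edn3, and the converting enzyme Ece1. They were taken by gene symbol from the deposited expression table, which held all 5 among 18561 genes, and were followed across all 8 libraries. The libraries came from enteric neural crest cells, the cells that colonise the gut and form its nervous system, sorted from the gut of mouse embryos of embryonic day 14.5. The sort relied on antibodies to CD271, a neurotrophin receptor (gene Ngfr), and to CD57, a sugar epitope that needs the enzyme of the gene B3gat1. About 200 cells went into a tube, and full-length cDNA was amplified from them. Of the libraries, 5 carried the genotype label Emb knockdown, replicates 1 to 5, and 3 the label WT, replicates 1 to 3. How Emb was knocked down, in which cells, the strain and the number of animals behind a tube are not given in the sources used here. The p-values therefore cover only the variation from library to library, which may be technical.

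Endothelins are short peptides cut from larger precursors, first by furin-type proteases and then by endothelin converting enzyme. They act on G protein-coupled receptors: the B receptor binds all endothelins alike, while the A receptor prefers endothelin-1. In the developing gut, endothelin-3 from the mesenchyme acts on the B receptor of neural crest cells and keeps them proliferating and undifferentiated until they have colonised the bowel. Loss of EDN3, EDNRB or ECE1 function leaves the distal bowel without enteric neurons, as in Hirschsprung disease.

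The ligands are shown first, because their mature peptides are close in sequence and their reads must be told apart. The stretch that encodes the mature peptide was found in the GENCODE M21 transcripts (GRCm38) by the spacing of its cysteine codons and its last tryptophan codon. It spanned 63 bases, or 21 codons, in each gene. Capitals mark the bases at which the ligands differ.
Edn1: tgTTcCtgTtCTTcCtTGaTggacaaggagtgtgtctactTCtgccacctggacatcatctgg
Edn3: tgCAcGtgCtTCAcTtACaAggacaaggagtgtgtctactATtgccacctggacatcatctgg
The stretches agreed at 50 bases and differed at 13, 11 of them in the first 20 bases. Over whole transcripts, 0 of the 31-base words of any of the 5 genes occurred in another of them (2109 words in Edn1 to 5435 in Ednra), so reads of this length could be assigned to 1 member.

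In the build GRCm38.p6 (RefSeq), Ednrb lay on chromosome 14 from 103814615 to 103844508 (gene identifier 13618) and Ednra on chromosome 8 from 77663029 to 77724452 (13617), both on the minus strand. Edn1 lay on chromosome 13 from 42301476 to 42307990 (13614), Edn3 on chromosome 2 from 174760619 to 174784042 (13616) and Ece1 on chromosome 4 from 137862237 to 137965229 (230857), all on the plus strand. All 5 are protein coding, and the counts cover whole genes, so isoforms and starts were not resolved. In GENCODE M21 no other gene overlapped Ednrb or Edn3. One noncoding gene overlapped each of Ednra, Edn1 and Ece1, which matters because the library method does not mark strand. These overlapping genes were not rows of the table.

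The libraries held 20116607 to 26959265 expected counts. Levels are given as CPM, the count scaled by the TMM-adjusted library size over all 8 libraries, and 3 counts, the most that a count of 0 allows, came to 0.0966 to 0.155 CPM. This floor covers counting error only. Emb itself was higher in every library labelled knockdown (21.4 to 353 CPM) than in any WT library (15.9 to 17.7 CPM), so directions here compare libraries by their labels. The libraries labelled knockdown 1 and 2 stood apart. Their 14 leukocyte markers summed to 21952 to 26358 CPM, against 1389 to 2474 CPM in those labelled knockdown 3 to 5 and 325 to 565 CPM in WT, with 0 markers at 0 in any library. Their 12 enteric neural crest and glia markers summed to 9.33 to 45.0 CPM, against 678 to 779 CPM and 1867 to 2049 CPM. Among these markers, Sox10, Foxd3, Tlx2, S100b and B3gat1 had 0 counts in the library labelled knockdown 2, and B3gat1 had 0 in that labelled knockdown 1. S100b was low in WT as well, at 15 to 34 counts. The differences of the members are therefore given with 8 libraries and with the 6 left without the libraries labelled knockdown 1 and 2. Fold changes of other genes are given with 6 libraries, and the similarity of profiles over 8. In bulk libraries, fewer cells of a type and less RNA per cell cannot be told apart.

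The B receptor gene was the member with the clearest difference. Ednrb reached 1029.5, 1214 and 1252 CPM in the 3 WT libraries, in the order of their numbers. The libraries labelled knockdown 3, 4 and 5 had 340.4, 386 and 345 CPM of it, and those labelled knockdown 1 and 2 had 176 and 159 CPM. All 5 libraries labelled knockdown lay below every WT library, as for 11.9% of genes tested with 8 libraries and 23.0% with 6. The spread of Ednrb within each group of 3 was small beside the gap (357 ± 24.9 CPM against 1165 ± 119 CPM, SD, n = 3 each). With 6 libraries Ednrb fell 3.26-fold (log2 fold change -1.70 ± 0.18 SE, edgeR quasi-likelihood test, adjusted p = 0.00343), and the call held with each library left out in turn (adjusted p from 0.00112 to 0.0315). With 8 libraries the log2 fold change was -2.05 ± 0.33, which did not pass (adjusted p = 0.137). Of the 12 enteric neural crest and glia markers, 9 fell and none rose with 6 libraries, as did 4 and none of 10 enteric neuron markers, whose sum was 1449 to 2031 CPM in WT and 610.4 to 1014 CPM under the labels knockdown 3 to 5. Without the library labelled knockdown 4 the counts were 5 and 0. Without WT library 3 they were 6 and 2, and without WT library 2 they were 8 and 2. Over all genes the calls lower went from 1417 (9.37%) with all 6 libraries to 76, 128 and 193 in the same order. The part of enteric neural crest cells, glia and neurons in the Ednrb values was not tested.

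**Figure D1:**
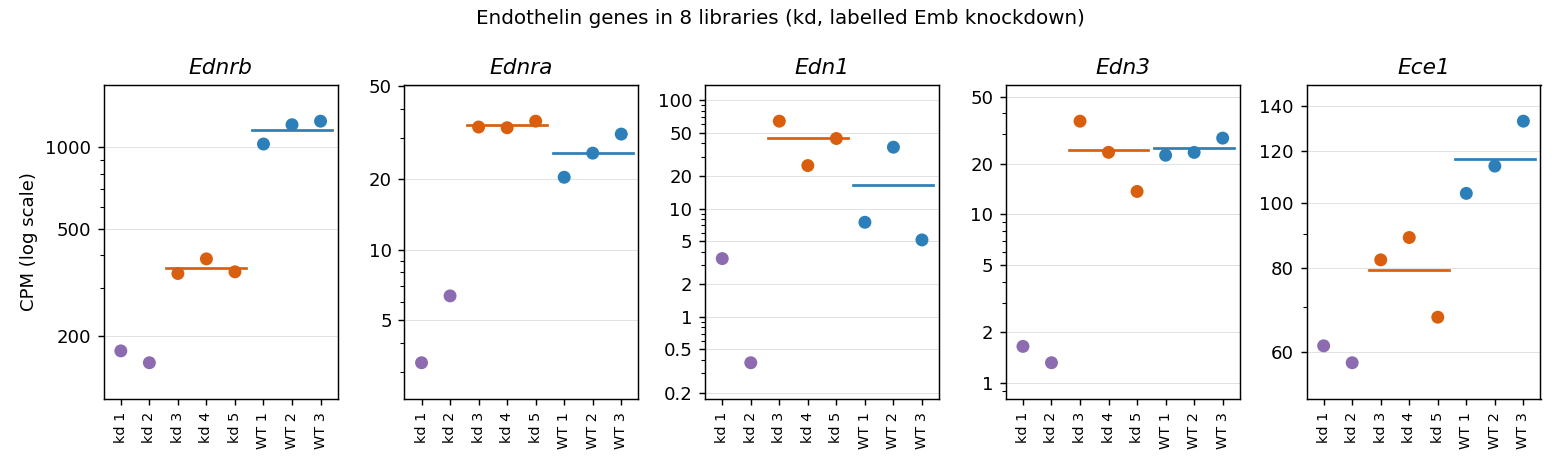
CPM (log scale, a separate range for each gene) of the 5 endothelin genes in each library, purple for the libraries labelled knockdown 1 and 2, orange for those labelled knockdown 3 to 5 and blue for WT, with lines at the means of the orange and blue groups. Ednrb and Ece1 are lower in every library labelled knockdown than in any WT library, as are 11.9% of all genes tested. Edn1 spreads from 5.14 to 36.9 CPM within WT alone.

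These values were read against the calls over all genes. With 6 libraries, 9.37% of the 15115 genes tested were called lower and 11.1% higher in the libraries labelled knockdown, 20.4% in all, and of the 5 members 1 was called lower and none higher. Of all calls in that comparison 54.1% were higher, against 38.4% on log2(FPKM + 1) and 45.4% when no composition factor was used. With 8 libraries 0% of 15411 genes passed in edgeR's test. At an unadjusted threshold of 0.05 it picked 18.6% of genes, 5.90% lower, and 2 of the 5 members, Ednrb and Ece1, both lower. DESeq2's Wald test called 14.5% of genes with 8 libraries, 3.93% lower, and among the members Ednrb (log2 fold change -2.06, adjusted p = 1.03e-05) and Ece1 (-0.72, adjusted p = 0.0132). Limma voom with quality weights called 24.0% of genes, 11.5% lower, and among the members Ednrb at -1.79 (adjusted p = 0.00566) and Ece1 at -0.59 (adjusted p = 0.0302).

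For the A receptor gene no difference passed the test. Ednra stood at 20.4, 25.8 and 31.1 CPM in WT, and the libraries labelled knockdown 3, 4 and 5 had 33.4, 33.2 and 35.4 CPM. The latter lay just above every WT library, as 20.4% of all genes tested did in this comparison. The log2 fold change was 0.40 ± 0.21 (adjusted p = 0.192). In the libraries labelled knockdown 1 and 2 Ednra had 64 and 135 counts, or 3.30 and 6.36 CPM, below every other library. With 8 libraries the log2 fold change was -0.21 ± 0.75 (adjusted p = 0.914), and its sign turned without the library labelled knockdown 1 (0.07) or 2 (0.03). Vascular smooth muscle and mesenchymal cells are known sites of A receptor expression. The 10 smooth muscle and pericyte markers summed to 1638 to 2431 CPM in WT, 1785 to 3192 CPM with the labels knockdown 3 to 5, and 87.9 to 618 CPM with the labels knockdown 1 and 2. The 10 gut mesenchyme markers summed to 2642 to 3903, 5141 to 5652 and 66.8 to 488 CPM in the same order, with Pdgfra at 0 counts in the library labelled knockdown 1. Their part in the Ednra values was not tested.

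Because CPM does not allow for length, levels of different genes were compared as FPKM. Ednrb made up 85.9% to 88.6% of the FPKM summed over the 5 genes in WT, 58.3% to 70.7% under the labels knockdown 3 to 5, and 76.4% to 76.7% in those labelled knockdown 1 and 2. It ranked between place 243 and 323 of 18561 genes in WT, between 855 and 1058 under the labels knockdown 3 to 5, and at 2480 and 2645 in the other 2. Ece1 came next in 6 of 8 libraries, and Edn1 was above it in those labelled knockdown 3 and 5. The lower 3 genes did not keep an order: Ednra was above Edn3 in 4 of 8 libraries and above Edn1 in 3 of 8. Within the receptor pair, the FPKM ratio of Ednrb to Ednra was 53.0, 48.6 and 42.1 in WT and 10.6, 12.6 and 10.7 in the libraries labelled knockdown 3, 4 and 5. These ranges did not overlap, and the difference in mean log2 ratio was -2.08 (exact two-sided permutation test, p = 0.1, the smallest that 3 against 3 allows, adjusted p = 0.167 over the 5 ratio tests made here). In the libraries labelled knockdown 1 and 2 the ratio was 57.2 and 27.5, and with 8 libraries the difference was -1.36 (exact two-sided permutation test, p = 0.143, adjusted p = 0.179).

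**Figure D2:**
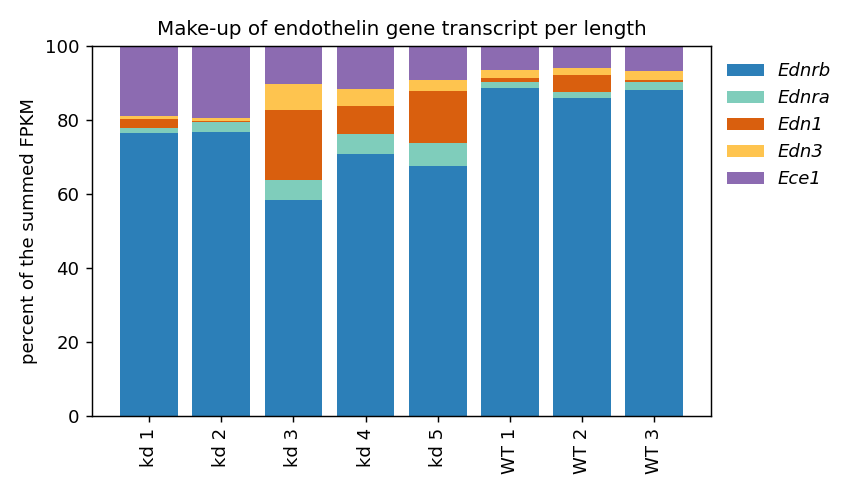
Share of each gene in the FPKM summed over the 5 endothelin genes (percent, vertical axis) for each library. The Ednrb part takes at least 85.9% in WT and 58.3% to 70.7% under the labels knockdown 3 to 5.

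Edn3 encodes the ligand that the gut mesenchyme supplies to crest cells. WT libraries 1, 2 and 3 held 22.5, 23.4 and 28.4 CPM of it, and the libraries labelled knockdown 3, 4 and 5 held 35.8, 23.4 and 13.7 CPM. The WT values lay inside the range of the libraries labelled knockdown, with 1 of these 3 above all WT libraries and 1 below. With 6 libraries no difference was detectable (log2 fold change -0.02 ± 0.33, adjusted p = 0.968), and the sign turned without the library labelled knockdown 4 or 5 or WT library 3 (0.01, 0.27 and 0.09). In the libraries labelled knockdown 1 and 2 Edn3 had 32 and 28 counts (1.65 and 1.32 CPM), below every other library. With all 8 libraries the log2 fold change was -0.70 ± 0.98 (adjusted p = 0.759). It did not pass in any alternative, and was -0.41 without the library labelled knockdown 1 or 2, -1.30 without that labelled knockdown 3, -1.84 on log2(FPKM + 0.1) and -2.70 with the replicate block.

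Edn1, the ligand best known from endothelial and epithelial cells, had the largest coefficient of variation in CPM of the members over all 8 libraries (99.8%) and over the 6 (74.4%). Within the libraries labelled knockdown 3 to 5 that of Edn3 was slightly larger (45.6% against 44.1%). Its level was 7.48, 36.9 and 5.14 CPM in WT libraries 1, 2 and 3, while those labelled knockdown 3, 4 and 5 had 64.2, 24.98 and 44.4 CPM. Only WT library 2 reached into the range of the latter. In the libraries labelled knockdown 1 and 2 the gene had 67 and 8 counts, or 3.45 and 0.377 CPM. With 6 libraries the log2 fold change was 1.43 ± 0.69 and did not pass (adjusted p = 0.161). Without WT library 2, the WT library that reached into that range, it was 2.82 ± 0.45. It then passed edgeR's test (adjusted p = 0.0237, with 417 of 15418 genes called, 224 higher). With 8 libraries it was 0.74 ± 1.35 (adjusted p = 0.822), and it turned to -0.32 on log2(FPKM + 0.1). The 8 gut epithelium markers, among them Epcam, Cdh1 and Krt8, summed to 352, 897 and 363 CPM in WT and to 1264, 349 and 300 CPM under the labels knockdown 3, 4 and 5. The highest Edn1 value of each group was in the library with the highest epithelial sum. The libraries labelled knockdown 4 and 5 had Edn1 above WT libraries 1 and 3, and epithelial sums below theirs. In the libraries labelled knockdown 1 and 2 the epithelial sum was 24.3 and 12.7 CPM, with Cdx2 at 0 in the second. The part of epithelial RNA in the Edn1 values was not tested.

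**Figure D3:**
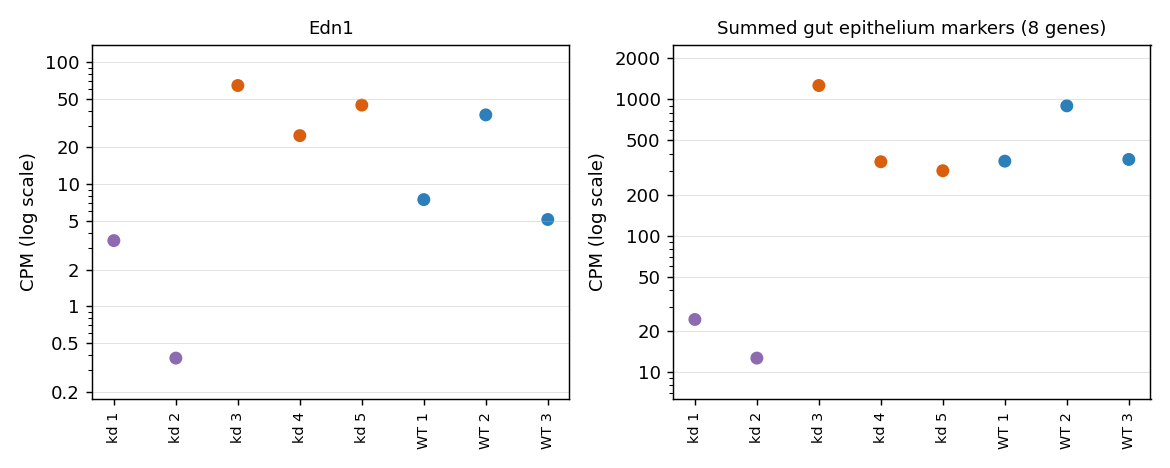
CPM (log scale) of Edn1 on the left and of 8 summed gut epithelium markers on the right in each library, coloured as in the plot of the 5 genes by library. WT library 2 and the library labelled knockdown 3 are highest in their group in both panels. The libraries labelled knockdown 4 and 5, at 349 and 300 CPM on the right, lie below the lowest WT sum there (352 CPM).

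Ece1 encodes the membrane protease that releases mature endothelin from its intermediate. Over all 8 libraries its CPM had the smallest coefficient of variation of the members (30.2%), but over the 6 that of Ednra was smaller (19.0% against 23.9%). WT libraries 1, 2 and 3 had 104, 114 and 133 CPM of Ece1. The 3 labelled knockdown 3, 4 and 5 had 82.3, 88.9 and 67.6 CPM, and knockdown 1 and 2 had 61.2 and 57.7 CPM. All 5 libraries labelled knockdown were below every WT library, as for 11.9% of genes with 8 libraries and 23.0% with 6. With 6 libraries the log2 fold change was -0.55 ± 0.18, which did not pass (edgeR quasi-likelihood test, adjusted p = 0.0609). The gene passed in edgeR without a composition factor (-0.64, adjusted p = 0.0389, with 3180 of 15115 genes called, 1735 lower). It passed in DESeq2's Wald test (-0.55, adjusted p = 0.0260, with 31.3% of genes called, 14.4% lower) and in voom (-0.52, adjusted p = 0.0183, with 45.7% called, 22.2% lower). It also passed in edgeR when the library labelled knockdown 3 was left out (-0.59, adjusted p = 0.0336, with 5982 of 15394 genes called, 3020 lower). With 8 libraries it was -0.71 ± 0.21 (adjusted p = 0.161).

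**Figure D4:**
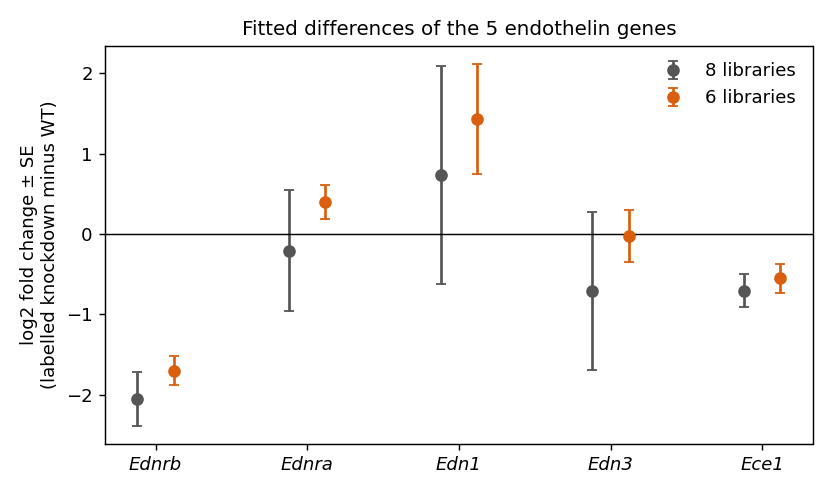
Log2 fold change (labelled knockdown minus WT) with its SE for the 5 genes, grey with all 8 libraries and orange with 6. Ednrb lies at -2.05 and -1.70, and only its value with 6 libraries passed edgeR's test; the error bars of Edn1 and Edn3 are widest with 8 libraries.

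Ednrb was set beside Sox10, a crest transcription factor known to act on an Ednrb enhancer. Sox10 fell from 266 CPM in WT (mean, n = 3) to 71.4 CPM under the labels knockdown 3 to 5 (log2 fold change -1.90 ± 0.16, adjusted p = 0.00343). The ratio of Ednrb to Sox10 in CPM was 5.01, 4.97 and 5.04 in these libraries and 3.67, 4.43 and 5.13 in WT. The WT range enclosed the other 3 values, and the mean log2 ratios differed by 0.20 (exact two-sided permutation test, p = 0.4, adjusted p = 0.4, where 3 against 3 cannot go below 0.1). The ratio was 31.9 in the library labelled knockdown 1, with 107 Sox10 counts. In that labelled knockdown 2, with 3371 Ednrb and 0 Sox10 counts, it was at least 1124 against a floor of 3 counts. In these 2 libraries Ret stood at 0.876 and 0.377 CPM, Tubb3 at 1.13 and 0.706 CPM, and Csf1r and Ptprc at 2317 to 3024 and 470 to 595 CPM, beside 159 to 176 CPM of Ednrb.

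Ece1 was set beside Cdh5, the VE-cadherin gene, since endothelium is a known site of this enzyme. The ratio of Ece1 to Cdh5 in CPM was 0.923, 1.27 and 0.973 in WT, 3.27, 5.56 and 6.57 in the libraries labelled knockdown 3, 4 and 5, and 23.3 and 18.0 in those labelled knockdown 1 and 2. The groups did not overlap. The difference in mean log2 ratio was 2.24 with 6 libraries and 3.06 with 8 (exact two-sided permutation tests, p = 0.1 and p = 0.0357, each the smallest its design allows, adjusted p = 0.167 for both over 5 ratio tests). The 12 endothelial markers summed to 489 to 665 CPM in WT, 109 to 198 CPM under the labels knockdown 3 to 5, and 86.4 to 88.8 CPM in the other 2, where Emcn, Cldn5 and Sox17 were at 0. In those labelled knockdown 1 and 2 Pecam1 stood at 52.2 and 45.6 CPM and Eng at 23.4 and 29.2 CPM. No other endothelial marker was above 7.77 CPM in them, and Cdh5 was at 2.63 and 3.20 CPM. With 6 libraries 10 of the 12 endothelial markers fell (log2 fold changes -2.71 to -1.14), where 9.37% of all genes tested fell. The other 2, Emcn and Erg, did not pass. The count was 4 without WT library 3, also 4 when the library labelled knockdown 4 was left out, and 6 without WT library 2. Over all genes the calls lower went from 1417 to 128, 76 and 193 in the same order. The part of endothelial RNA in the Edn1, Ednrb and Ece1 values was not tested.

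**Figure D5:**
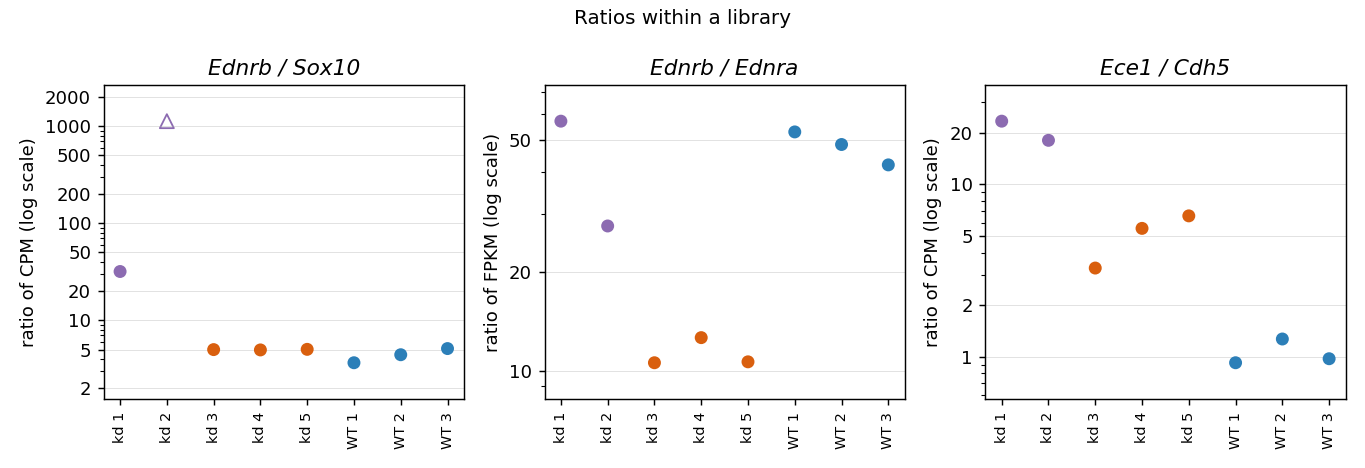
Ratios within each library (log scale): Ednrb to Sox10 in CPM, Ednrb to Ednra in FPKM and Ece1 to Cdh5 in CPM, coloured as in the plot of the 5 genes by library, with an open triangle for a lower bound where Sox10 had 0 counts. Ednrb to Sox10 lies at 3.67 to 5.13 in 6 libraries, whereas Ednrb to Ednra falls from at least 42.1 in WT to at most 12.6 in the libraries labelled knockdown 3 to 5.

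To show sequence beside these values, the bases upstream of each listed start were searched for SOX core letters, ACAAAG and ACAAT on either strand. Ece1 had 4 listed starts and each other member 1. The 250 bases before the start in the RefSeq promoter table (GRCm38.p6) are printed 5′ to 3′ on the strand of the gene, with matches in capitals. The window is chr14:103843702-103843951 on the minus strand for Ednrb and chr13:42301226-42301475 on the plus strand for Edn1. The start listed for Ednrb lies inside the gene as bounded above, so its window is not upstream of the whole gene, and the bases before the start farthest upstream were not searched.
Ednrb: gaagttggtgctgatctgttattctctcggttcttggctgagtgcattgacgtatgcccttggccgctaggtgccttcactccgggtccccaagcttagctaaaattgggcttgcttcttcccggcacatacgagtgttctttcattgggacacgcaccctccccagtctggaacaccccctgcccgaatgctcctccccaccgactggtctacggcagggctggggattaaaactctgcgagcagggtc
Edn1: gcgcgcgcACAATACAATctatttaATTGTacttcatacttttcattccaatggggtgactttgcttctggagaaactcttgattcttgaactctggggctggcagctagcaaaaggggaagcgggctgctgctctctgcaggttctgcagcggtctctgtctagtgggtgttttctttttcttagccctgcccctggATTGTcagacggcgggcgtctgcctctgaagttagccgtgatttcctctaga
Neither letter string was found in the Ednrb window before this internal start, and ACAAT was found 4 times in that of Edn1. ACAAAG was in 16.5% and ACAAT in 27.4% of 32536 such windows. Ednra and Edn3 held 0 of either, and of the 4 windows listed for Ece1, 1 held a single ACAAT. A match describes letters in a window and does not show binding.

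Other genes of the pathway were followed as 4 lists. Among genes that process or degrade endothelins, 10 of 11 were tested with 6 libraries, and 1 fell, none rose and 9 did not pass (median log2 fold change -0.31, against 0.02 over all genes). Over all genes tested, 9.37% fell and 11.1% rose, so the share of this list that fell was near that of all genes. Furin, the protease of the first cut, fell from 47.1 ± 3.76 to 29.3 ± 1.56 CPM (SD, n = 3 each, adjusted p = 0.0282), and stood at 72.0 and 58.0 CPM under the labels knockdown 1 and 2. Of the third ligand and the second converting enzyme little was seen: Edn2 lay at 1.09 to 4.48 CPM and Ece2 at 0.323 to 2.60 CPM in the 6 libraries, and both were at 0 counts in the library labelled knockdown 2, as was Ece2 in that labelled knockdown 1.

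Among 26 genes of G proteins and effectors, 2 fell, 6 rose and 18 did not pass (median 0.20), where 9.37% of all genes fell and 11.1% rose. Gna12, the alpha subunit of G12, fell from 60.7 ± 2.57 to 7.90 ± 9.85 CPM (adjusted p = 0.0336) and Gnai3, of an inhibitory G protein, from 163 ± 5.03 to 105 ± 23.9 CPM (adjusted p = 0.0494). In the libraries labelled knockdown 1 and 2 Gna12 stood at 65.7 and 43.7 CPM. The inositol trisphosphate receptor genes Itpr3 (log2 fold change 1.30 ± 0.24) and Itpr1 (0.89 ± 0.23) rose, as did Prkcd, a protein kinase C gene (0.95 ± 0.23). Gnaq and Gna11, whose products couple endothelin receptors to phospholipase C, did not pass (0.67 ± 0.24 and -0.90 ± 0.32, adjusted p = 0.0770 and 0.0739); they were named after their values were seen.

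Of 15 tested genes of receptor desensitisation and trafficking, 3 fell, 3 rose and 9 did not pass (median -0.04), beside 9.37% and 11.1% of all genes. Rgs2, a regulator of G protein signalling that acts on Gq, rose from 33.5 ± 5.61 to 143 ± 4.81 CPM (log2 fold change 2.10 ± 0.18, adjusted p = 0.00343). Grk2, a receptor kinase gene, and Arrb1, an arrestin gene, rose by 1.32 ± 0.34 and 1.15 ± 0.31. Rgs16, Grk6 and Rgs3 fell by 2.07 ± 0.40, 1.03 ± 0.22 and 0.79 ± 0.16 on the log2 scale. In the libraries labelled knockdown 1 and 2, Rgs2 stood at 572 and 511 CPM and Grk2 at 217 and 178 CPM. There Arrb1 had 39.8 and 36.6 CPM, Rgs16 0.464 and 0.518 CPM, Grk6 126 and 138 CPM and Rgs3 50.5 and 42.3 CPM. Many of these genes are also expressed in leukocytes. Of the 14 leukocyte markers, 13 were higher and none lower with 6 libraries. Without the library labelled knockdown 4, 8 were higher, where 104 of 15454 genes tested were called higher. The part of leukocytes was not tested.

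Of 7 tested crest transcription factors and regulators known or proposed upstream of Ednrb, 2 fell, 1 rose and 4 did not pass (median -0.60), again beside 9.37% and 11.1% of all genes. Sox10 fell as given above, and Sp1, a general factor, rose by 1.12 ± 0.24 (adjusted p = 0.0174). Of the 16 called genes that the naming rule took from these lists, 14 lost the call without the library labelled knockdown 4, 14 without WT library 3, 12 without WT library 2, 8 without WT library 1 and 7 without the library labelled knockdown 5. Calls over all genes went from 3090 with all 6 libraries to 180, 294, 417, 1388 and 1663 in the same order. Sox10 and Rgs2 kept the call in all 6 cases. Without the library labelled knockdown 3 more genes passed. Then 3 of 10 processing genes fell, and 7 of 26 G protein and effector genes fell and 8 rose. Of 15 desensitisation genes 6 fell and 6 rose. Over all genes, 5982 of 15394 were called in that setting, 3020 lower and 2962 higher. With 8 libraries 0 genes of the lists passed.

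Genes with the most similar profile were sought by the root mean square difference in log2 CPM over the 8 libraries, each gene centred on its own mean, among 10608 genes with a mean of at least 10 CPM. For Ednrb, whose own profile spread 1.12 around its mean, these were Fscn1 (0.20), Palm (0.23), Plppr3 (0.23) and Nrarp (0.25). For Ednra, with a spread of 1.20, they were St6galnac3 (0.15), Spats2l (0.15), Cdh11 (0.17) and Dkk2 (0.20). Those closest to Edn3 were Brinp1, Efna4, P3h4 and Arhgap29 (0.29 to 0.33 against a spread of 1.74), and those closest to Ece1 were Skp2, Bclaf3, Slc25a4 and Pnkd (0.10 to 0.11 against 0.41). Edn1 had no close match, its nearest being Rhpn2, Tspan8, Moxd1 and Grb7 (0.87 to 0.98 against 2.24). Among the members the closest pair was Ednrb and Ece1 (0.74), a difference larger than the spread of Ece1 itself (0.41). No member was among the 4 genes closest to another. Counting from the closest, Ece1 was at place 470 for Ednrb and Edn3 at place 213 for Edn1. In the reverse direction Ednrb was at place 5643 for Ece1 and Edn1 at place 2061 for Edn3.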

How the data were processed

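Gene expression was measured in 8 libraries, 5 labelled Emb knockdown and 3 labelled WT. HISAT, Bowtie2 and the build GRCm38.p6 are named, per the submitters' processing notes, without their roles. Which tool counted is not given in the sources used here. Expected counts per gene were estimated and deposited by the authors without normalisation. FPKM and TPM values were deposited by the authors, as was a signal made from the counts with 1 factor per library. TPM and that signal were not used in any result, nor were 8 columns of group means. Here, expected counts were rounded, filtered with filterByExpr, scaled by TMM and compared by edgeR 4.0.16 in R 4.3.3 (quasi-likelihood F test with robust dispersions), with Benjamini-Hochberg adjustment over all genes and a threshold of 0.05. FPKM was used to compare levels of different genes. The alternatives were DESeq2 1.42.0, its size factors in edgeR, limma 3.58.1 (voom with quality weights, and log2 FPKM with pseudocounts of 1 and 0.1), no composition factor, no low-count filter, a replicate block and each library left out in turn. Before use, the fitting code was tested on simulated data with known changes.

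The members, lists and tests, and the choice to repeat comparisons with 6 libraries, were made with earlier results of these data known. Named were the 5 members, the checks of the labels, fixed markers, up to 4 called genes of each pathway list in each direction, and the 4 genes of closest profile to each member; some genes that this rule takes are not reported here. Of 17 symbols on the desensitisation list, 2 were older names of genes already on it. The labels do not say whether replicate numbers pair the libraries. The deviations of same-numbered libraries from their group means correlated at -0.03, 0.04 and -0.04 over genes, and those of other pairs at -0.08 to 0.10. The group mean of the libraries labelled knockdown included the 2 that stood apart, so these correlations cannot decide whether the numbers pair. Every pair of libraries differed by more than sampling noise (smallest chi-square per degree of freedom 29.5).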

Additional observations from a re-analysis of the deposited data

How the results depend on the processing

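The fall of Ednrb with 6 libraries kept its direction and its call in all 13 alternatives (log2 fold change -1.79 to -1.65). With 8 libraries no member passed in edgeR, and DESeq2 and voom each called 2 (Ednrb at -2.06 and -1.79, Ece1 at -0.72 and -0.59), with 2220 and 3692 calls over all genes. Leaving out each library gave 0 to 2 calls over all genes with 8 libraries and 180 to 5982 with 6, where voom called 6900. With 6 libraries 2 members were called, Ednrb and Ece1, by DESeq2 (Ece1 at -0.55), voom (-0.52), log2(FPKM + 1) (-0.61), log2(FPKM + 0.1) (-0.63) and without a composition factor (-0.64). Over all genes DESeq2 called 31.3% and voom 45.7%. Of 15115 genes, log2(FPKM + 1) called 3190, log2(FPKM + 0.1) 3136 and the setting without a composition factor 3180. Leaving out each library gave 1 to 2 called members, and Ece1 from -0.64 to -0.44, Edn1 from 1.00 to 2.82 and Edn3 from -0.43 to 0.27. With 8 libraries the sign of Ednra turned with voom (0.11) and ranged from -0.43 to 0.07 with each library left out. That of Edn1 turned on log2(FPKM + 0.1) (-0.32) and with the replicate block (-1.15), which called 0 members and 0 genes and changed no call. For Edn1 and Ednra the cause was not tested. With 6 libraries the groups share only 1 replicate number, so no block could be fitted. The difference in mean log2 ratio of Ece1 to Cdh5 with 8 libraries ranged from 2.71 to 3.41 with each library left out (exact permutation p from 0.0571 to 0.0952), where fewer libraries cannot reach a p under 0.05. Scaling without a composition factor moved the median log2 fold change of all genes with 8 libraries from 0.07 to -0.17, and log2(FPKM + 1) moved it to -0.21. At this depth, values of a few counts, such as the 8 counts of Edn1 in the library labelled knockdown 2, carry wide counting error.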
